A study of Bombus terrestris with 20 samples.

Results

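LOC100642443, annotated as leucine-rich repeat-containing protein 70 and also known as Immune Responsive Protein 30 (IRP30), was followed as 1 gene of the 10661 genes listed for the bumblebee B. terrestris. It was chosen by its identifier, with its own values in every library already known, so its levels and differences below are a description and carry no test. mRNA-seq libraries were made from the ovary, brain, and fat body of ovary-active (OA) workers, with ovaries scored 4 to 6 for activation, and of ovary-inactive (OI) workers, with ovaries scored 0 to 1. There were 3 libraries for each tissue and phenotype (18 libraries) and 2 libraries of worker-laid eggs no more than 1 h old. A tissue library pooled the organs of 7 workers, except for 1 brain pool of OI workers that held 14, and each egg library was a pool of 24 eggs. Another brain pool of OI workers came from colonies obtained months after the others, and the replicate numbers of these brain pools are not given in the sources used here. OA workers were 22 to 34 days old and OI workers 24 to 32 days old, and both came from colonies that still had their queen. Most OA workers and the OI workers of like age set against them belonged to different colonies, so differences between colonies were not separated from those between phenotypes. The egg-laying workers were of unknown age. They came from other colonies and were kept in groups of 3 workers, not in colonies with their queen. Another sequencing provider made the egg libraries.

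Leucine-rich repeats are short protein motifs that stack into a curved surface and bind other proteins, and they form the outer part of Toll receptors, which in insects signal to transcription factors of the NF-kappa-B family such as Dorsal. In the honeybee, IRP30 is a secreted protein of the haemolymph that appears after bacterial challenge. The fat body is the insect organ that makes most haemolymph proteins, including the yolk precursor vitellogenin and the antimicrobial peptides abaecin and defensin, and the ovary takes up yolk proteins from the haemolymph.

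Values for the tissues are normalized counts, which the authors scaled within each tissue, and 1 read was worth 0.770 to 1.386 of them. The tissue libraries held between 23118226 and 34419602 reads, from the sums of the values, and the egg libraries 50166010 and 52324103. The values of LOC100642443 were whole reads in all 18 tissue libraries within 0.02 of a read.

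In fat body, LOC100642443 was among the most abundant transcripts of OA workers and about an order of magnitude lower in OI workers. It had 41015, 37967, and 40597 normalized counts in the OA fat body libraries. In the OI fat body libraries, it had 3756, 2233, and 6271 normalized counts. The phenotypes did not overlap, and even the highest OI library, replicate 3, lay far below the lowest OA library. All OA libraries lay above all OI libraries in 15.6% of the 8850 genes tested in fat body, a share given as background, since these values chose the gene. The mean was 39860 ± 1653 normalized counts in OA workers and 4087 ± 2039 in OI workers (SD, n = 3 each), a ratio of 9.75, and single libraries differed by 6.05-fold to 18.4-fold. On the scale of log2(normalized count + 1), OA exceeded OI by 3.41 (SE 0.43). The OA pools were nearly alike, with a coefficient of variation of 4.15%, whereas the coefficient for the OI pools was 49.9%.

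**Figure D1:**
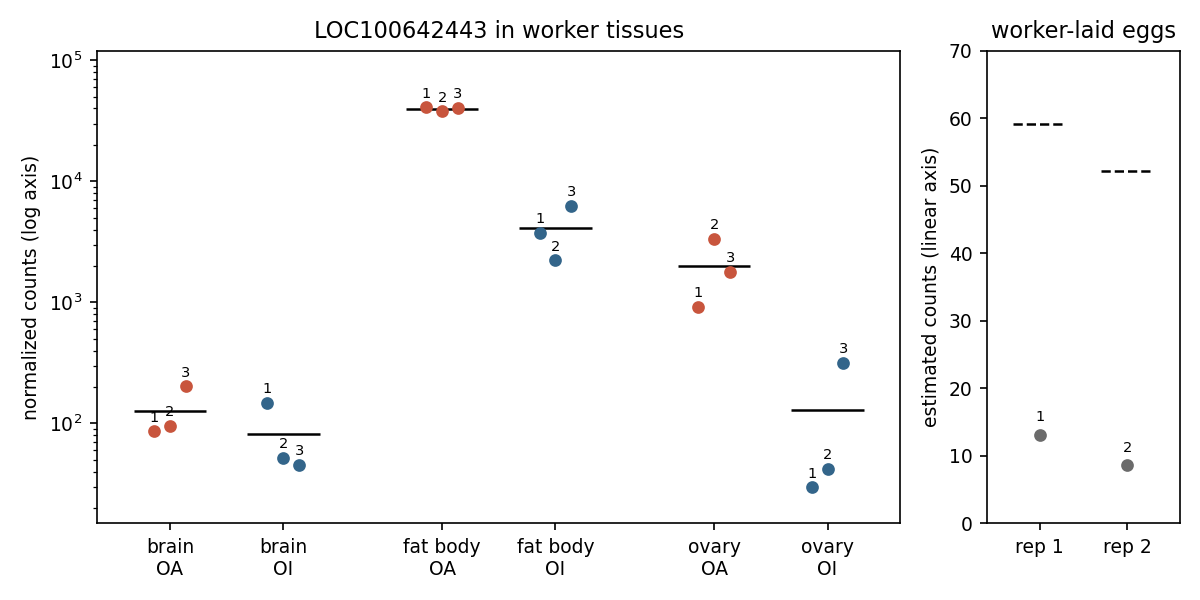
Levels of LOC100642443 in each library, as normalized counts on a log axis for brain, fat body, and ovary of OA (red) and OI (blue) workers (bars are means, numbers are replicates), and as estimated counts on a linear axis for worker-laid eggs, where dashed lines mark the threshold of expression. The OA fat body libraries sit at 37967 to 41015, above every other library, and both egg libraries lie below their thresholds.

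By rank, LOC100642443 was the 84th, 85th, and 88th gene from the top of the 9659 genes listed in the OA fat body libraries. In the OI fat body libraries, it was the 1079th, 1773rd, and 628th. These ranks are by normalized counts without correction for gene length. Its log2 difference was the 12th highest of the 8850 genes tested in fat body, where 5% of genes lay below -0.70 and 5% above 0.48. Of the 82 other genes with at least as high a mean in OA fat body, 1 had a larger difference.

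In ovary, the gene was less abundant than in fat body, and the phenotypes were again apart. It had 920, 3338, and 1785 normalized counts in the OA ovary libraries. In the OI ovary libraries, it had 29.7, 42.4, and 316 normalized counts. Replicate 3 of OI ovary stood well above the other OI libraries but below every OA library, so the phenotypes did not overlap, as was the case for 33.3% of the 9496 genes tested in ovary in that direction. The mean was 2014 ± 1225 normalized counts in OA ovaries and 129 ± 162 in OI ovaries (SD, n = 3 each), a ratio of 15.6, with ratios between single libraries of 2.91 to 112. The log2 difference was 4.56 (SE 1.18), and it was 5.60 without OI replicate 3. The difference was the 117th highest of 9496, in a tissue where differences were broad: 5% of genes lay below -1.97 and 5% above 2.12.

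In brain, LOC100642443 was scarce and the phenotypes overlapped. It had 85.9, 95.5, and 202 normalized counts in the OA brain libraries, from 88, 81, and 199 reads. In the OI brain libraries, it had 148, 52.1, and 45.6 normalized counts, from 150, 60, and 47 reads. One library of each phenotype stood above the others, replicate 3 in OA workers and replicate 1 in OI workers. The mean was 128 ± 64.6 normalized counts in OA brains and 81.9 ± 57.3 in OI brains (SD, n = 3 each), and the log2 difference of 0.74 (SE 0.66) was within the spread between libraries. Among the 9490 genes tested in brain, all OA libraries lay above all OI libraries in 1.84% and below them in 2.69%. The difference of LOC100642443 moved between 0.35 and 1.26 as single libraries were left out. It was the 106th highest of 9490, in a tissue where differences were narrow: 5% of genes lay below -0.23 and 5% above 0.25.

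**Figure D2:**
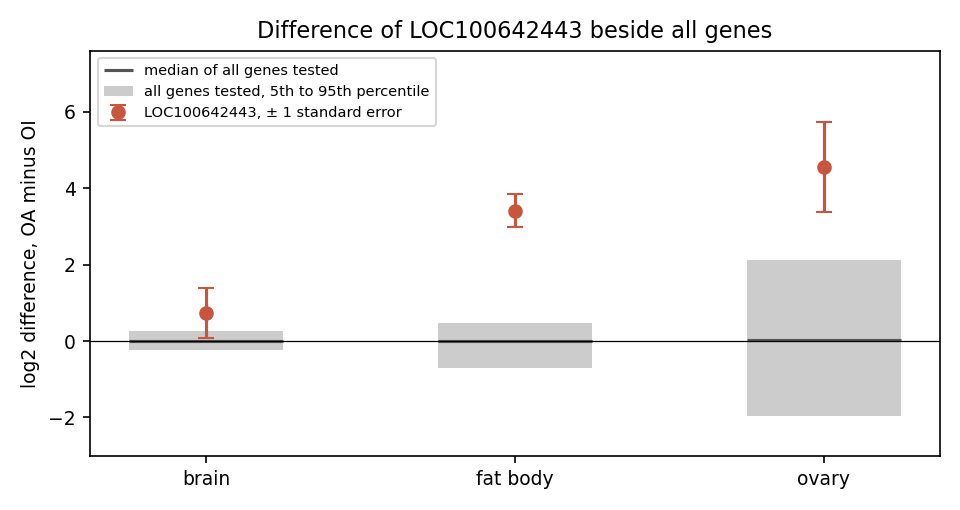
Log2 difference of LOC100642443, OA minus OI, with its standard error (points and bars, n = 3 libraries per phenotype), beside the 5th to 95th percentile (grey) and the median (line) of all genes tested in brain, fat body, and ovary. The differences of 3.41 in fat body and 4.56 in ovary lie above the grey ranges, which end at 0.48 and 2.12.

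As the tables were scaled separately, levels of the gene were set across tissues as reads scaled to 1000000 reads of the library (CPM). The order was OA fat body with 1350 ± 38.9, OI fat body with 142 ± 73.9, OA ovary with 67.9 ± 43.5, OI ovary with 5.52 ± 6.95, OA brain with 4.99 ± 3.02, and OI brain with 3.31 ± 2.29 CPM (SD, n = 3 each). OA fat body stood apart from all other groups. OI fat body, at 75.7 to 222 CPM, overlapped OA ovary, at 32.1 to 116, so these neighbours did not differ beyond their spread. OI ovary (1.26 to 13.5), OA brain (2.96 to 8.46), and OI brain (1.88 to 5.96) overlapped one another.

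Within OA workers, the mean level in fat body was 19.9 times that in ovary and 270 times that in brain, and the level in ovary was 13.6 times that in brain. Within OI workers, fat body exceeded ovary 25.7-fold and brain 42.7-fold, with no overlap. OI ovary and OI brain, with a ratio of 1.67, overlapped. Fat body was kept in another preservative (AllProtect) than brain and ovary (RNAlater), so tissue and preservative were not separated in the ratios to fat body. Counting error was small beside these differences: the lowest count, 34 reads in replicate 1 of OI ovary, gave 1.26 CPM with an exact 95% binomial interval of 0.87 to 1.75, and replicate 3, with 313 reads, gave 13.5 with an interval of 12.1 to 15.1. The distance between these libraries was thus larger than their counting error. Such intervals cover counting error only.

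In worker-laid eggs, LOC100642443 had 13.1 and 8.58 estimated counts. After the zFPKM transformation, which centres each library on the bulk of its expressed genes, it stood at -4.16 and -4.33. Expression in eggs was called above -3 in both libraries, a threshold that lay at 59.2 and 52.2 estimated counts, so the gene was below it in both, while 7828 of the 10661 genes were above. Estimated counts of eggs are corrected for length and those of the tissues are not, so the levels were not compared. Of the other leucine-rich repeat genes, 15 of 16 were called expressed in eggs, and of the immune genes 10 of 15 were. The antimicrobial peptide genes abaecin and Def and the lysozyme gene were not called, as they passed the threshold in replicate 1 only. In replicate 1, abaecin stood at -2.44, Def at -1.52, and lysozyme at -2.45. In replicate 2, abaecin stood at -4.47 and lysozyme at -3.68, and Def had 0 estimated counts.

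The tissue labels were checked against markers. Summed germline markers (4 genes) reached 2190 to 3011 CPM in OA ovary and 1483 to 2106 in OI ovary, against at most 315 in other tissues. Most of the sum in ovary was protein bicaudal C homolog 1-B (LOC100642983), followed in OA ovary by protein maelstrom 2 (LOC100644702). Maternal protein tudor (LOC100644474) had 1919 to 6171 normalized counts in brain and 3685 to 6776 in ovary. Piwi-like protein Ago3 (LOC100644656) had 2071 to 2594 in OA ovary and 4494 to 6059 in OI ovary, opposite to the sum. Summed neuron markers (2 genes) reached 603 to 867 in OA brain and 579 to 1176 in OI brain. The sum was at most 133 in fat body and 508 in ovary. Only synaptosomal-associated protein 25 (LOC100643971) was highest in brain. CUGBP Elav-like family member 2 (LOC100644765) went the other way, with 339 to 892 normalized counts in brain and 3288 to 8135 in ovary. The fat body list had only 1 named gene, the vitellogenin-like precursor LOC100643258, which was nearly absent from fat body in both phenotypes (at most 0.23 CPM), so this list could not check the fat body label.

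Several marker sums moved with phenotype in ovary alongside LOC100642443. The vitellogenin-like precursor LOC100643258 had 40.3 to 64.6 CPM in OA ovary and 3.59 to 15.4 in OI ovary. Muscle markers (2 genes, among them troponin I) summed to 196 to 223 in OA ovary and 508 to 747 in OI ovary, and neuron markers to 187 to 247 in OA ovary and 456 to 508 in OI ovary. The larger part of this neuron sum was LOC100644765, with 3288 to 4652 normalized counts in OA ovary and 6130 to 8135 in OI ovary. Haemocyte markers (hemocytin and a peroxidasin homolog) overlapped as a sum, with 101 to 248 in OA ovary and 212 to 376 in OI ovary. Most of this sum was the peroxidasin homolog (LOC100642607), which overlapped. Hemocytin (LOC100642980) did not, with 30.5 to 67.9 normalized counts in OA ovary and 145 to 286 in OI ovary. All OA libraries lay below all OI libraries in 33.3% of genes tested in ovary. In fat body, haemocyte markers summed to 21.7 to 27.1 in OA workers and 28.1 to 29.3 in OI workers, neuron markers to 91.3 to 112 in OA workers and 118 to 133 in OI workers, and germline markers to 154 to 169 in OA workers and 173 to 193 in OI workers, each without overlap. Muscle markers overlapped there, with 118 to 162 in OA workers and 151 to 252 in OI workers. The part of tissue composition in the values of LOC100642443 was not tested, and in pooled tissue fewer cells of a type and less RNA per cell cannot be told apart.

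The levels of other genes abundant in fat body were also set across the 2 tissues. The lysozyme gene LOC100642297, whose enzyme cuts bacterial cell walls, had 1034 to 1142 CPM in OA fat body and 762 to 1081 in OI fat body. In ovary, it had 2.27 to 8.58 CPM in OA workers and 6.83 to 7.22 in OI workers, so the OI values lay inside the OA range. The mean of lysozyme in ovary was 0.53% of its mean in fat body in OA workers and 0.75% in OI workers, and that of abaecin (LOC100631078) was 0.20% in OA workers and 0.61% in OI workers. The share was 1.53% in OA workers and 1.37% in OI workers for Def, and 23.8% in OA workers and 8.06% in OI workers for beta-1,3-glucan-binding protein (LOC100642442). The mean of LOC100642443 in ovary was 5.03% of its mean in fat body in OA workers and 3.90% in OI workers. It lay between those of the other 4 genes, which were chosen after their values were seen, and the part of fat body RNA in the ovary libraries was not tested.

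The other leucine-rich repeat genes were compared between phenotypes in the same way. Of the 2219 genes with a name, the list held the 16 other genes that carry such a repeat in their name or belong to a family known for it, and they were tested with limma on all genes of a tissue with Benjamini-Hochberg adjustment. In brain, 0 of 16 were called at an adjusted p under 0.05, and 0 had an unadjusted p under 0.05, with 0 called by DESeq2. The background in brain was 2 genes of 9490, or 0.0211%, with 105 at an unadjusted p under 0.05 in limma and 5 called by DESeq2. In fat body, 15 of the 16 passed the filter on low values, and 1 of them was called, lower in OA workers, against a background of 2.93% of genes called, 1.97% lower and 0.96% higher. Their median log2 fold change was -0.29, against 0.00 for all genes tested. In ovary, 8 of 16 were called lower in OA workers and 0 higher, against a background of 53.9% of genes called, 26.7% lower and 27.3% higher, and the median was -0.37, against 0.02 for all genes. The share called was thus near that of all genes. In 4 of the 16, all OA ovary libraries lay above all OI ovary libraries, and in 8 all OA libraries lay below. Over all genes tested in ovary, the share was 33.3% in each direction. Connectin (LOC100643941) and leucine-rich repeat-containing protein 20 (LOC100642680) were among the 4 above, with log2 fold changes of 0.72 and 0.48, and limma called neither. DESeq2 called 2 genes of the list higher and 8 lower in ovary, against 2795 higher and 2714 lower of all 9496 genes tested.

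The gene called in fat body was LOC100643338, named leucine-rich repeat extensin-like protein 5 after a plant cell wall protein. It had 655, 919, and 754 normalized counts in OA fat body, against 1224, 1284, and 1488 in OI fat body, and the phenotypes did not overlap. The log2 fold change was -0.79 (SE 0.14, limma, Benjamini-Hochberg adjusted p = 0.0287). It was called in 4 of 6 fits with 1 library left out, and not without OA replicate 1 or without OI replicate 2. The call was also lost with a replicate block (limma, Benjamini-Hochberg adjusted p = 0.0743) and with all 18 libraries in 1 fit (adjusted p = 0.0508). In ovary, it also fell, by 0.70 on the log2 scale (SE 0.25, limma, Benjamini-Hochberg adjusted p = 0.0449), a call that held in 1 of 6 fits with 1 library left out.

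**Figure D3:**
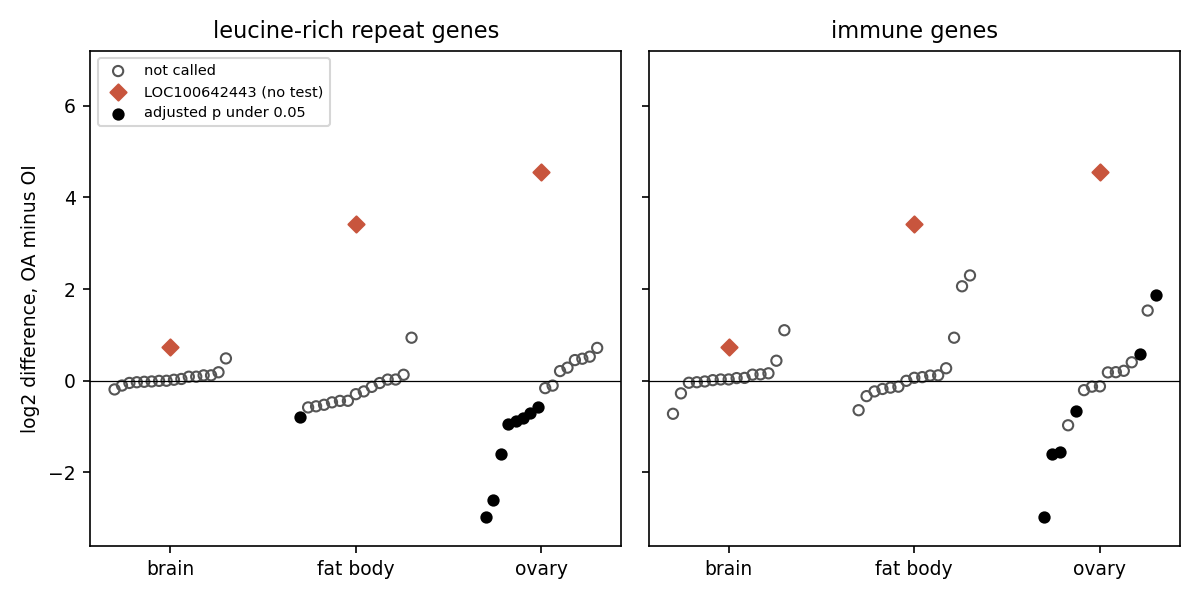
Log2 difference, OA minus OI, of each of the other leucine-rich repeat genes (left) and immune genes (right) that passed the filter in each tissue, with filled points for genes at an adjusted p under 0.05 in limma and diamonds for LOC100642443, which has no test. In ovary, 8 leucine-rich repeat genes were called, all lower in OA workers, whereas LOC100642443 stands at 4.56.

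In ovary, the largest falls among leucine-rich repeat genes were in receptor-like proteins of the cell surface. Toll-like receptor 6 (LOC100631067), a member of the Toll family, had 11.5 ± 7.59 normalized counts in OA ovaries and 88.3 ± 19.8 in OI ovaries (SD, n = 3 each), with a log2 fold change of -2.98 (SE 0.48, limma, Benjamini-Hochberg adjusted p = 0.00188). Leucine-rich repeats and immunoglobulin-like domains protein 3 (LOC100643877) had 75.0, 49.9, and 31.9 normalized counts in OA ovaries, against 313, 290, and 307 in OI ovaries, a log2 fold change of -2.60 (SE 0.34, limma, Benjamini-Hochberg adjusted p = 8.09e-04). Toll-like receptor Tollo (LOC100644648) had 842, 762, and 701 normalized counts in OA ovaries, against 1984, 2117, and 2991 in OI ovaries, a log2 fold change of -1.60 (SE 0.19, limma, Benjamini-Hochberg adjusted p = 5.40e-04). In each of the 3 genes the phenotypes were fully apart, in the direction opposite to LOC100642443. Leucine-rich repeat-containing protein 4 (LOC100643961) and the MATH and LRR domain-containing protein (LOC100643540) followed, with log2 fold changes of -0.94 and -0.88. The other 3 genes called lay between -0.81 and -0.57. Without OI replicate 3, 5 leucine-rich repeat genes were called, all lower, against 3846 of 9473 genes (1970 higher, 1876 lower). All sums of muscle and neuron markers named above moved the same way as these genes in ovary.

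The immune list held 15 genes of pathogen recognition, Toll signalling, and antimicrobial defence, of which toll-like receptor 6 and Tollo stand in both lists. In brain, 0 of 15 were called by limma and 0 by DESeq2, and 1 had an unadjusted p under 0.05. In fat body, 0 of 15 were called by limma, 2 had an unadjusted p under 0.05, and DESeq2 called 1, cactus (LOC100631059), lower in OA workers. In ovary, 6 of 15 were called, 2 higher and 4 lower in OA workers, a share below the 53.9% of all genes called there, and the median log2 fold change was -0.12, against 0.02 for all genes. The background in brain and fat body was 0.0211% and 2.93% of genes called. An unadjusted p under 0.05 in limma was reached by 105 of 9490 genes in brain and 2248 of 8850 in fat body. DESeq2 called 5 of those 9490 genes in brain and 1006 of the 8850 in fat body.

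Of the effectors, abaecin came nearest to LOC100642443 in fat body. It had 42857, 39342, and 29229 normalized counts in OA fat body, against 8125, 2575, and 19832 in OI fat body, without overlap. Its log2 fold change was 2.30 (SE 0.62, limma, Benjamini-Hochberg adjusted p = 0.0839), which did not pass the threshold. Def, the defensin gene, had 6352, 7391, and 3957 normalized counts in OA fat body, against 484, 440, and 11978 in OI fat body, so that 1 OI library exceeded all OA libraries (log2 fold change 2.06, SE 1.13, limma, Benjamini-Hochberg adjusted p = 0.29). Without OI replicate 3, both genes were called higher in OA fat body, with log2 fold changes of 3.002 for abaecin (LOC100631078; limma, Benjamini-Hochberg adjusted p = 0.0154) and 3.63 for Def (adjusted p = 0.00135 in the same fit). That library was the highest OI library for both genes, and neither was called in the other 5 fits with 1 library left out: over the 6 fits, the adjusted p ranged between 0.0154 and 0.241 for abaecin (LOC100631078) and between 0.00135 and 0.601 for Def. These effectors were named after their values had been seen.

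Of the recognition and signalling genes, beta-1,3-glucan-binding protein (LOC100642442), which recognizes microbial cell wall sugars, had 1283, 1211, and 1058 normalized counts in OA ovaries, against 323, 430, and 245 in OI ovaries. The phenotypes did not overlap, and the log2 fold change was 1.86 (SE 0.23, limma, Benjamini-Hochberg adjusted p = 6.92e-04). MyD88 (LOC100631094), the adaptor of Toll receptors, also rose in ovary, by 0.57 on the log2 scale (SE 0.14, limma, Benjamini-Hochberg adjusted p = 0.0101), but was not called after each library was scaled to its total. The genes called lower, besides the Toll receptors, were Dscam2 (LOC100644003), a cell adhesion molecule of the immunoglobulin family, with a log2 fold change of -1.56, and dorsal (LOC100631054), the transcription factor at the end of the pathway, with -0.67. The Toll ligand spaetzle (LOC100643414), at 1713 ± 187 normalized counts in OA ovaries and 1535 ± 380 in OI ovaries (SD, n = 3 each), was not called.

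Deviations of LOC100642443 from the mean of its own tissue and phenotype were set beside those of every other gene, to leave out the contrast between phenotypes. The 18 libraries share their reads among all genes, and fat body and ovary libraries came from the same workers, so the correlations are given as a description. Over 8585 genes, the median correlation was -0.02, 5% of genes lay above 0.40, and 16 genes exceeded 0.7. Abaecin was the 6th highest, with r = 0.75 over 18 libraries, and Def the 16th, with r = 0.70. Over the 6 libraries of a tissue, r for abaecin was 0.97 in fat body, 0.84 in brain, and 0.70 in ovary. For Def, it was 0.84 in brain and 0.85 in both other tissues. In fat body, deviations of LOC100642443 lay between -0.07 and 0.04 in OA workers, so r there rested mostly on the OI libraries. In brain, abaecin was scarce, with 4.34 to 57.9 normalized counts. Tollo was next among the immune genes, at the 138th place with r = 0.53. All other immune genes compared lay between -0.38 for spaetzle (LOC100643414) and 0.15 for CD109 antigen (LOC100631073), with the effector lysozyme at -0.07.

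LOC100642443 shared its highest library with these 2 genes more often than its lowest. LOC100642443 and abaecin had their highest library in common in 6 of 6 groups of tissue and phenotype. For Def, this held in 4 of 6 groups, among them all 3 OI groups, where replicate 1 was highest in brain and replicate 3 in fat body and ovary. The lowest library was in common in 2 of 6 groups for abaecin and in 3 of 6 for Def. Such counts were not made over all genes, so they are a description. In brain, Def had 11.7, 20.03, and 25.4 normalized counts in OA workers, against 172, 4.34, and 12.6 in OI workers. In ovary, Def had 104, 96.5, and 70.7 normalized counts in OA workers, against 14.8, 15.4, and 116 in OI workers. The single high OI library in each tissue was thus also high in LOC100642443. With each library left out in turn, r stayed between 0.71 and 0.89 for abaecin and between 0.65 and 0.76 for Def, lowest in both without replicate 1 of OI brain. Whether that library was the pool from later colonies is not known.

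**Figure D4:**
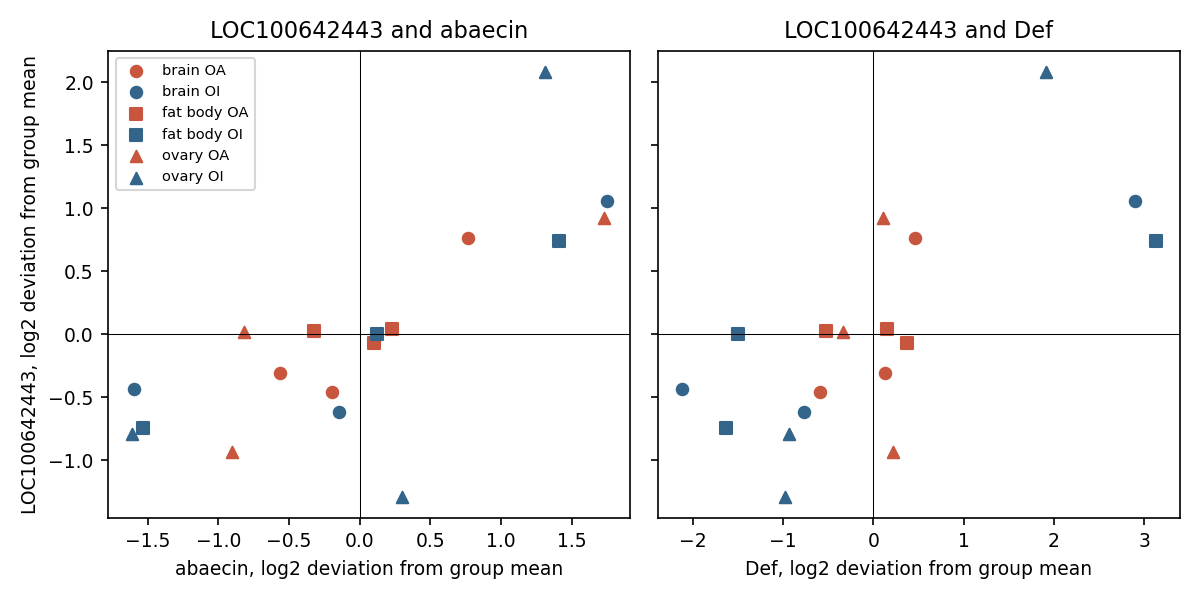
Log2 deviation of LOC100642443 from the mean of its tissue and phenotype (vertical) against that of abaecin (left) and Def (right) in the 18 tissue libraries, with shapes for tissues, red for OA, and blue for OI. The OI libraries at the upper right of both panels are replicate 1 of brain, replicate 3 of fat body, and replicate 3 of ovary, and r is 0.75 for abaecin and 0.70 for Def.

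The 5 genes most like LOC100642443 by this measure were LOC100645125 (r = 0.81), LOC100647887 (0.80), LOC100650185 (0.77), LOC100649211 (0.76), and LOC110119301 (0.76), none of which has a name in the sources used here. They did not share its level: LOC110119301 had 84637 to 97669 normalized counts in OA fat body and 86501 to 99826 in OI fat body. When libraries were centred on tissue alone, so that the contrast between phenotypes entered, 352 genes exceeded r = 0.7, and the 10 highest lay between 0.84 and 0.89, led by LOC100651747, LOC100645021, LOC105665926, LOC100652206, and LOC100651312. The others were LOC100644526, LOC100648965, LOC105667087, LOC100647353, and LOC100645595.

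All 10 were apart between phenotypes in fat body and in ovary, with OA above OI, which the measure favours. One of them, LOC100652206, is given in full, as chosen after its values were seen. It had 11027, 8804, and 7261 normalized counts in OA fat body, against 2616, 2516, and 3149 in OI fat body. In ovary, it had 2270, 1813, and 674 normalized counts in OA workers, against 103, 154, and 158 in OI workers, and in brain 253 to 325 in OA workers and 234 to 259 in OI workers. The phenotypes overlapped in brain, as they did for LOC100642443, but r after centring on phenotype too was 0.12.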

How the data were processed

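The 3 tissues and the eggs were sequenced as mRNA libraries, and groups were taken from the sample labels. With kallisto 0.46.1, the authors pseudoaligned reads to transcripts of the Bter_1.0 genome build, and then estimated counts per gene. The signal values deposited by the authors for each tissue are normalized counts on a linear scale: DESeq2 1.34.0 in R 4.1.3 had divided the estimated counts by its factors for that tissue. The estimated counts deposited by the authors for the eggs are corrected for length and were not scaled between libraries. Gene names came from the study's supplement, held here only in part, and 2219 of 10661 genes had one.

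Within each tissue, log2(normalized count + 1) was compared between OA and OI libraries with limma 3.58.1 in R 4.3.3, with a variance trend, leaving out genes whose mean was under 10, and with Benjamini-Hochberg adjustment at 0.05. Since replicates are pools of workers, p-values measure the spread between pools. Reads were recovered by dividing each value by the worth of 1 read in its library. Values were whole reads, within 0.02, for 60.0% to 61.0% of values in 17 libraries and for 100.0% in replicate 3 of OI brain, so limma was the main test, and DESeq2 1.42.0 on rounded reads an alternative, beside total and TMM scaling (edgeR 4.0.16), pseudocounts of 0.5 and 5, no filter, a replicate block, all 18 libraries in 1 fit, and each library left out. The script was tested on simulated data. zFPKM was recomputed per egg library in R 4.3.3. Other summaries were made with Python 3.11.15, numpy 2.4.6, and pandas 2.3.3, and figures were drawn with matplotlib 3.10.9.

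The gene and the lists were chosen with earlier results of these data known. Named genes are LOC100642443, the 10 and the 5 genes most correlated with it, its neighbours, the fat body marker, the list genes called in brain or fat body, and up to 5 list genes called in ovary in each direction, with the exceptions stated in the text. Order of neighbouring genes came from the iyBomTerr1.2 assembly, which is not the build of the files, so no coordinates or sequences are given.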

Additional observations from a re-analysis of the deposited data

Results flagged for a closer look

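Beta-1,3-glucan-binding protein (LOC100642442) differed between phenotypes in opposite directions in ovary and brain: its log2 fold change, OA minus OI, was 1.86 in ovary, where all OA libraries lay above all OI libraries, and -0.72 in brain, where all OA libraries lay below, at 237 to 295 normalized counts in OA brains and 413 to 524 in OI brains. The difference between the tissues was not tested, and the brain value was not called (limma, Benjamini-Hochberg adjusted p = 0.9999).

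Connectin (LOC100643941), a leucine-rich repeat cell adhesion protein known from Drosophila, was likewise apart in opposite directions, with a log2 fold change of 0.72 in ovary and -0.47 in fat body. Neither was called (limma, Benjamini-Hochberg adjusted p = 0.0537 in ovary and 0.0883 in fat body), and the difference between the tissues was not tested.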

How the results depend on the processing

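The log2 difference of LOC100642443 kept its direction under every scaling and pseudocount tried and moved by less than 1 SD between libraries. With single libraries left out, it ranged between 0.35 and 1.26 in brain, 3.04 and 3.78 in fat body, and 3.91 and 5.60 in ovary. Scaling each library to its total moved the median of all genes in ovary from 0.02 to -0.32 and split the ovary calls into 1572 higher and 3794 lower in OA workers, against 2592 and 2531. The difference of LOC100642443 in ovary was then 4.22, and 9 leucine-rich repeat genes were called, all lower. DESeq2 called 2 leucine-rich repeat genes higher and 8 lower in ovary, against 2795 higher and 2714 lower of all 9496 genes tested.

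Counts of calls in fat body depended most on the setting. All genes called there numbered 259, against 441 with total scaling, 1006 with DESeq2, 161 with all 18 libraries in 1 fit, and 41 to 527 with single libraries left out (41 without OA replicate 2, 47 without OA replicate 1, 75 without OI replicate 2, 397 without OA replicate 3, and 527 without OI replicate 3). Leucine-rich repeat genes called in fat body numbered 1, against 3 with total scaling, 5 with DESeq2, 0 with all libraries in 1 fit, and 0 to 3 with single libraries left out. Immune genes called in fat body numbered 0, against 1 with DESeq2, 1 with all libraries in 1 fit (cactus, lower), and 0 to 2 with single libraries left out. In brain, all genes called numbered 2, against 4 with total scaling, 5 with DESeq2, and 0 to 0 with single libraries left out. In ovary, single libraries left out gave 3846 to 5191 genes, 5 to 9 leucine-rich repeat genes, and 6 to 8 immune genes. TMM scaling, the other pseudocounts, and no filter left every count within 1.5 times its value. The cause of the shifts above was not tested, and each left-out fit also held fewer samples.

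The study paired OA with OI pools by age, but the replicate number of each pool is unknown. Deviations of libraries with the same number correlated at -0.24 to 0.25, so no pairing by number was assumed. With a replicate block, 0 genes were called in brain and 63 in fat body, with 0 leucine-rich repeat genes in fat body. In ovary, that fit called 8 of 16 leucine-rich repeat genes (1 higher, 7 lower) and 6 of 15 immune genes, against 4182 of 9496 genes.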

Other observations

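The annotated neighbours of LOC100642443 in the iyBomTerr1.2 assembly are given by their values, with no test. The next protein-coding gene on one side is prosaposin (LOC100643798), the precursor of lysosomal saposins, which had 45779, 42295, and 48179 normalized counts in OA fat body, against 41309, 42128, and 36699 in OI fat body. In ovary, prosaposin had 49053, 36590, and 27110 normalized counts in OA workers, against 17186, 17404, and 19400 in OI workers, and in brain 35166 to 38456 in OA workers and 34737 to 36339 in OI workers. Prosaposin was thus higher in all OA than in all OI libraries of fat body and ovary and overlapped in brain. Such separation held for 15.6% of genes tested in fat body and 33.3% in ovary. In fat body, its lowest OA library, at 42295, lay only just above its highest OI library, at 42128. For LOC100642443, single fat body libraries of the phenotypes differed by at least 6.05-fold. The nearest protein-coding gene on the other side, LOC100649403, had 7.06 to 17.2 normalized counts in OA fat body and 14.7 to 20.1 in OI fat body. LOC100650678, one place farther, had 7186 to 9250 in OA ovary and 1794 to 4137 in OI ovary, without overlap, and 382 to 475 in OA fat body and 366 to 548 in OI fat body, where the phenotypes overlapped. LOC100650956 had 22.2 to 45.1 in OA fat body and 27.4 to 32.3 in OI fat body, and LOC100646971 165 to 179 in OA fat body and 114 to 177 in OI fat body. LOC100648781 is not listed in fat body and reached at most 5.04 in OA ovary and 4.66 in OI ovary.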
